A study of Mus musculus with 4 samples.

Results

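Nuclei that carried RNA of brown adipocyte marker genes were picked out of 4 libraries of single nuclei from mouse aortic tissue. A nucleus was a member when it had at least 300 detected genes, at most 10% of its unique molecular identifier (UMI) counts from mitochondrially encoded genes, and at least 1 UMI for 4 or more of 10 marker genes. The markers were Ucp1, Cidea, Cpt1b, Ppara, Ppargc1a, Kcnk3, Esrrg, Gmpr, Otop1 and Dio2. At most 1 of 8 genes of other cell types was allowed to have a UMI, namely Nnat, Slc7a10, Trhde, Csf1r, Ms4a7, Pecam1, Pdgfra and Myh11. Of 107709 nuclei that passed the filters, 7989 met the rule, and they are called brown-marker nuclei here. The members were chosen by their measured UMIs, so the levels of these 18 genes are given as a description.

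All 4 groups were mice with a carbonic anhydrase 1 (CA1) knock-in on an ApoE-/- background, so no library lacked either change. The untreated group had no treatment. The high-fat group was fed a high-fat diet, the MTZ-after group was fed it and given methoxazolamide (MTZ, named in the series title as a CA1 inhibitor) once atherosclerosis was established, and the MTZ-simultaneous group was given the drug together with the diet. Each group had 1 library, so no difference between groups could be tested, and every interval below is an exact 95% interval that covers counting error only. The number, age and sex of the animals behind each library, the construct and expressing cells of the knock-in, and the amount of fat left on the vessels are not given in the sources used here.

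Brown adipocytes burn fatty acids and glucose to make heat. Their mitochondria hold uncoupling protein 1 (Ucp1), which lets protons return to the matrix without making ATP. Noradrenaline acts through beta-adrenergic receptors, cyclic AMP and protein kinase A to release fatty acids and to raise Ucp1 and Ppargc1a transcription. Fat around the mouse thoracic aorta is known to resemble brown fat, and nuclei of such fat can enter an aortic preparation.

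The deposited matrices held 31517272 to 69201159 UMIs per library. The members numbered 5499 of 22339 nuclei in untreated and 378 of 38016 in high-fat, against 1001 of 28093 in MTZ-after and 1111 of 19261 in MTZ-simultaneous. These were 24.6% (24.1 to 25.2), 0.994% (0.897 to 1.10), 3.56% (3.35 to 3.79) and 5.77% (5.44 to 6.11) of the nuclei. The untreated library stood apart with the highest share and the deepest members, whose median was 2788 UMIs against 1689, 1466 and 1681 in the other libraries. The remaining nuclei had medians of 1796.5, 965, 815 and 1400 UMIs. Between pairs of libraries, 118 to 376 barcodes of kept nuclei and 0 to 3 barcodes of members were identical.

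The same rule was applied to nuclei with UMIs for at least 3 T and NK cell markers or at least 3 B cell markers, cells that should lack the brown markers. In untreated, 54 of 399 T and NK nuclei met it (13.5%, 10.3 to 17.3, median 2354 UMIs), as did 35 of 228 B nuclei (15.4%, 10.9 to 20.7, median 2470 UMIs). The untreated share over all nuclei was above both intervals. In high-fat, 2 of 183 T and NK nuclei (1.09%, 0.133 to 3.89, median 1750 UMIs) and 8 of 224 B nuclei (3.57%, 1.55 to 6.92, median 1837 UMIs) met it. In MTZ-after these were 6 of 145 (4.14%, 1.53 to 8.79, median 1273 UMIs) and 3 of 61 (4.92%, 1.03 to 13.7, median 1495 UMIs). In MTZ-simultaneous they were 10 of 166 (6.02%, 2.93 to 10.8, median 1725 UMIs) and 15 of 291 (5.15%, 2.91 to 8.36, median 2085 UMIs). In the high-fat and the 2 drug-treated libraries the share over all nuclei was therefore below the share among lymphocyte nuclei or within its interval. Those 3 shares were thus not above the intervals found in cells that should lack the markers. The rule needs UMIs, and these lymphocyte nuclei had medians of 1273 to 2085 UMIs against 965, 815 and 1400 in nuclei outside the members. At full depth the comparison therefore cannot show whether brown adipocytes were present. No difference in the number of brown adipocytes is read between these libraries.

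With nuclei thinned to 500 UMIs, the shares were 6.04%, 0.0894%, 0.673% and 1.58%. Nuclei with fewer than 500 UMIs could not be thinned and were counted as not meeting the rule. These shares, and those of lymphocyte nuclei below, therefore still depend on depth. Of the thinned T and NK nuclei, 3.01% met the rule in untreated and 0 of 183 did in high-fat, which allows a share of up to 1.64%. The MTZ-after and MTZ-simultaneous shares were 0.690% and 1.20%. Thinned B nuclei met the rule in 4.39% in untreated, in 0 of 224 in high-fat (up to 1.34%), in 0 of 61 in MTZ-after (up to 4.92%) and in 2.06% in MTZ-simultaneous, which was above the share of all thinned nuclei there. A stricter subset, set after seeing the data, took members with at least 0.8% of their UMIs from the 10 markers and is called the marker-rich subset. This cut on the rule markers can by itself bring genes that follow those markers closer between libraries. The marker-rich subset held 1653, 36, 187 and 396 nuclei, or 7.40%, 0.0947%, 0.666% and 2.06% of each library. Among T and NK nuclei the marker-rich share was 3.01% in untreated, 0 of 183 in high-fat (up to 1.64%), 0 of 145 in MTZ-after (up to 2.07%) and 1.20% in MTZ-simultaneous. Among B nuclei it was 3.51% in untreated and 1.72% in MTZ-simultaneous, with 0 nuclei in the remaining libraries.

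**Figure D1:**
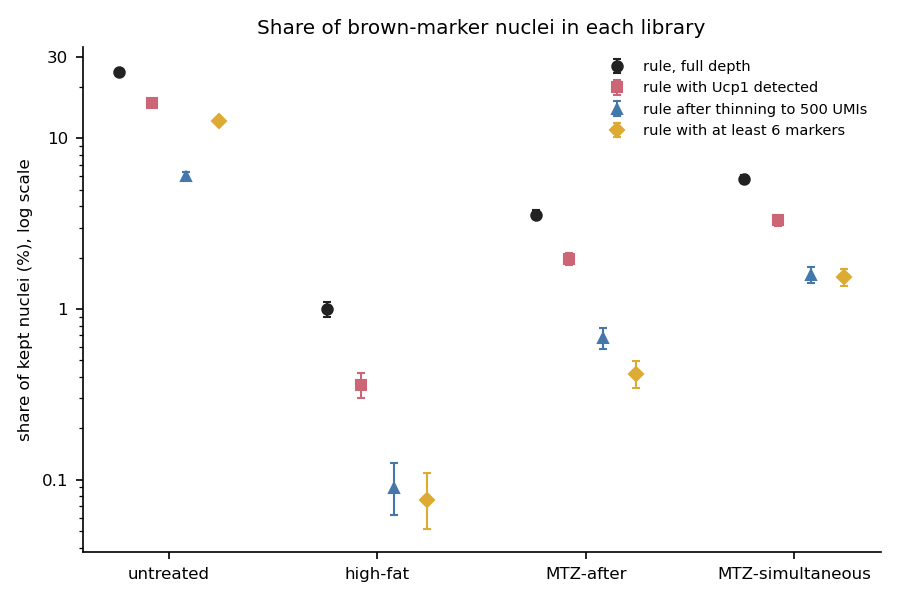
Share of nuclei (percent, log axis) in each of the 4 libraries under the rule at full depth, with Ucp1 among the markers detected, with nuclei thinned to 500 UMIs (shallower nuclei counted as not meeting the rule), and with at least 6 markers. Bars are exact 95% intervals for counting error. Untreated was highest under each of the 4 (24.6%, 16.1%, 6.04% and 12.6%) and high-fat lowest (0.994%, 0.358%, 0.0894% and 0.0763%).

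Many members lay at the edge of the rule. In untreated, 1476 members had exactly 4 markers, or 26.8% of them, and 1695 nuclei had 3 markers and stayed outside. In high-fat, 267 members (70.6%) had exactly 4 markers and 698 nuclei had 3. In MTZ-after, 626 members (62.5%) had 4 and 1412 nuclei had 3. One barred gene was present in 3609, 247, 638 and 799 members, and none in 1890, 131, 363 and 312. The members of the treated and high-fat libraries thus sat closer to the threshold than those of untreated.

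Among the 10 markers, Ucp1 (chr8:83290352-83298452 in mm10) measured 509 CPM in untreated and 215 CPM in high-fat members, and 450 and 563 CPM in those of MTZ-after and MTZ-simultaneous, where CPM is the gene's UMI count per 1000000 UMIs summed over the members of that library. Its level in T and NK reference nuclei of the same libraries was 183, 10.5, 80.8 and 36.9 CPM, and in a white adipocyte reference 31.9, 9.97, 31.0 and 20.2 CPM. The white reference held nuclei with at least 2 of Nnat, Slc7a10 and Trhde, 1 shared adipocyte gene and fewer than 4 brown markers. Ucp1 was above both references in every library. Members were chosen by markers that include Ucp1 and both references exclude members, so this order follows from the choice of nuclei. Within the marker-rich subset it measured 762, 583, 1002 and 1045 CPM, so that the order of untreated and the drug-treated libraries differed from that among all members.

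Cidea, a lipid droplet protein of brown adipocytes, measured 654, 427, 470 and 499 CPM in the same order of libraries. Ppargc1a, the coactivator that drives mitochondrial gene expression, measured 1326, 353, 452 and 933 CPM, against 480, 43.9, 73.1 and 73.7 CPM in T and NK nuclei. Ppara, a fatty acid-sensing nuclear receptor, measured 1807, 1071, 1204 and 2130 CPM. Ppara was lowest in high-fat and Ppargc1a too, with untreated or MTZ-simultaneous at the top. Esrrg, an orphan nuclear receptor of mitochondrial genes, measured 2005, 960, 1357 and 1628 CPM. Dio2, the deiodinase that activates thyroid hormone, measured 56.7, 34.3, 22.7 and 127 CPM. Cpt1b, the muscle and brown fat form of the enzyme that admits fatty acids to mitochondria, measured 370, 407, 301 and 496 CPM. Unlike Ppargc1a, Cpt1b was not lower in high-fat than in untreated. The potassium channel gene Kcnk3 measured 201, 150, 208 and 232 CPM, the proton channel gene Otop1 53.5, 47.0, 68.2 and 48.3 CPM, and Gmpr, a purine nucleotide enzyme, 243, 52.1, 107 and 127 CPM.

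The 250 bases before the RefSeq start site (GRCm38.p6) are shown for Ucp1, Ppargc1a and Dio2, which are rule markers with differing levels between libraries, and for Elovl6, a leading gene outside the rule. Capitals mark 4 searched motifs on either strand: TGACG, the short form of the cyclic AMP response element, its full form TGACGTCA, the nuclear receptor core motif AGGTCA and the TATA box TATAAA.
Ucp1 (chr8:83290098-83290347, plus strand): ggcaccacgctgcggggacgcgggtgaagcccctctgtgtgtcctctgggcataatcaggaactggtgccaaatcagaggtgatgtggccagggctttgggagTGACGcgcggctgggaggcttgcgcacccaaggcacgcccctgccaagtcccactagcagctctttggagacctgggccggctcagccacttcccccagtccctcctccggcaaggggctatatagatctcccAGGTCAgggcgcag
Ppargc1a (chr5:51567726-51567975, minus strand): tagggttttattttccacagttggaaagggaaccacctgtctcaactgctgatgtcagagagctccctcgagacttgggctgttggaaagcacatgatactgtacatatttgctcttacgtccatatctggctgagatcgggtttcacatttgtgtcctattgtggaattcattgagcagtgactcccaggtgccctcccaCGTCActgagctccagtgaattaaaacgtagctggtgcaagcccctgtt
Dio2 (chr12:90739039-90739288, minus strand): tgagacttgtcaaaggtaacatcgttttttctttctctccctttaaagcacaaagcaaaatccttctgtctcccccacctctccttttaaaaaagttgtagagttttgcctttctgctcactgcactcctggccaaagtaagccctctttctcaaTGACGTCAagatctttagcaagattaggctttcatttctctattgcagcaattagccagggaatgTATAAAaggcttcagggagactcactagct
Elovl6 (chr3:129532136-129532385, plus strand): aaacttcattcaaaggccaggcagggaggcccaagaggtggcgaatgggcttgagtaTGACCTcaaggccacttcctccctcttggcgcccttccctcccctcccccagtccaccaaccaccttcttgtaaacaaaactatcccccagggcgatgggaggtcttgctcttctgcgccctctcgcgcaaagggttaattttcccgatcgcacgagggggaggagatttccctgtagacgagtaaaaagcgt
Ucp1 had TGACG at 147 to 143 bases and AGGTCA at 14 to 9 bases before its start. Dio2 had the full TGACGTCA, which holds TGACG on both strands, at 95 to 88 bases and TATAAA at 30 to 25 bases. Ppargc1a had TGACG on the opposite strand at 49 to 45 bases, and Elovl6 had AGGTCA on the opposite strand at 193 to 188 bases. Of the 30 markers and leading genes, 22 had a window, and TGACG was present in 4 of 7 markers and 2 of 15 leading genes against 19.8% of 27025 genes. AGGTCA was present in 2 of 7 and 3 of 15 against 15.8%. The full response element was present in 1 of 7 and 0 of 15 against 1.77%. These matches describe letters in the window and show no binding.

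Adipocyte genes were higher in the members than in the other nuclei of every library. The summed level of 12 genes that white and brown adipocytes share (among them Adipoq, Plin1, Pparg, Cd36 and Fabp4) was 13787, 8063, 8635 and 12064 CPM, or 2.08, 2.31, 2.20 and 3.17 times the other nuclei. In the marker-rich subset it was 2.72, 4.31, 3.58 and 4.59 times. All 12 had counts in the members of every library. Of the marker lists of other cell types, some were lower in members than in other nuclei and some were not. The 8 endothelial markers stood at 0.491, 0.709, 0.693 and 0.579 of the other nuclei, the 10 macrophage markers at 0.385, 0.608, 0.658 and 0.569, and the 7 fibroblast markers at 0.424, 0.687, 0.625 and 0.577. T and NK markers stood at 0.356, 1.06, 0.730 and 0.657, and B cell markers at 0.460, 1.07, 0.790 and 0.757. In high-fat the members thus carried lymphocyte markers at about the level of the remaining nuclei. White adipocyte markers, 3 of which the rule bars in part, stood at 1.32, 1.98, 1.29 and 1.73 of the other nuclei. Adrenal cortex markers stood at 1.06, 1.45, 0.872 and 1.70, hepatocyte markers at 0.631, 1.26, 0.918 and 1.33, and Schwann cell markers at 0.622, 1.10, 0.873 and 1.03. Of the 9 adrenal markers, 6, 3, 8 and 3 had counts in the members. Of the 7 hepatocyte markers these were 5, 2, 7 and 7, and of the 7 Schwann cell markers 5, 3, 6 and 6. Where few had counts, the sum describes those genes and not the cell type.

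**Figure D2:**
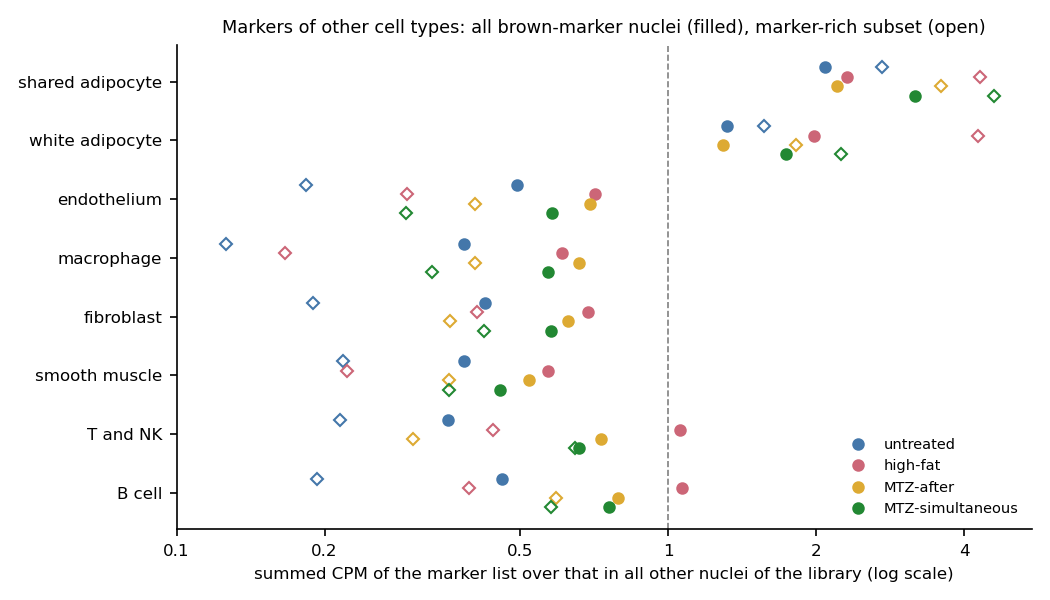
Summed CPM of each marker list in brown-marker nuclei over that in all other nuclei of the same library (log axis, dashed line at 1), for 8 cell types and 4 libraries; filled points are all members, open points the marker-rich subset. Shared adipocyte genes lie at 2.08 to 3.17 among all members, and endothelial genes at 0.491 to 0.709.

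Barred genes other than Pecam1 were low. Pecam1, an endothelial adhesion molecule, measured 423, 712, 631 and 573 CPM in the members and 942, 1008, 1073 and 1097 CPM in the other nuclei. Myh11, smooth muscle myosin, measured 24.5, 29.2, 88.7 and 125 CPM against 128, 139, 309 and 486 CPM. Their part in the comparisons below was not tested.

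The 20 genes outside the rule with the highest level in members over other nuclei, by each gene's lowest ratio over the 4 libraries, were led by A530065N20Rik (3.45), Ppargc1b (3.15), Pdk4 (3.13) and Pank1 (3.10). They follow from the choice of nuclei and are given as a description. Ppargc1b, the relative of Ppargc1a, measured 1847, 727, 906 and 1275 CPM. Pdk4, the kinase that shuts pyruvate out of mitochondrial oxidation, measured 1069, 535, 918 and 950 CPM. Pank1, which starts coenzyme A synthesis, measured 876, 426, 620 and 856 CPM against 47.8, 86.4, 160 and 97.2 CPM in white adipocyte nuclei. These 3 genes of fuel oxidation were lowest in the high-fat members. Others among the 20 were Elovl6, Mlxipl and Acacb of fatty acid synthesis and its control, the glycogen-targeting subunit Ppp1r3b, the adrenergic receptor Adra1a, the amino acid transporter Slc36a2, the mitochondrial coenzyme A carrier Slc25a42 and the brown fat long noncoding RNA Lncbate1. Slc36a2, a surface marker of brown adipocytes, measured 800, 533, 532 and 609 CPM, and its T and NK level was 276, 96.2, 169 and 113 CPM. The remaining leading genes were 4930556N13Rik, Aspg, Clstn3, Xrcc6, A530053G22Rik, Poln, Rgs7 and Rnf152, with lowest ratios of 2.72 to 2.99.

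Compared with the 189, 104, 107 and 147 white adipocyte reference nuclei, the median log2 ratio over the genes of the thermogenic mitochondrial list was 1.22, 1.28, 1.06 and 1.01. Over the fatty acid oxidation list it was 0.74, 0.96, 0.70 and 0.93. Both lists were on the brown side in every library. Car3, a carbonic anhydrase abundant in white fat, ran the other way, with 432, 1059, 501 and 1348 CPM in the members against 5346, 2190, 2235 and 3199 CPM in the white reference. Members were chosen for brown markers, and the reference for white markers with fewer brown markers than the rule asks for. Differences between the members and the reference can therefore follow from the choice of nuclei. They are given as a description and are no separate check of identity.

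**Figure D3:**
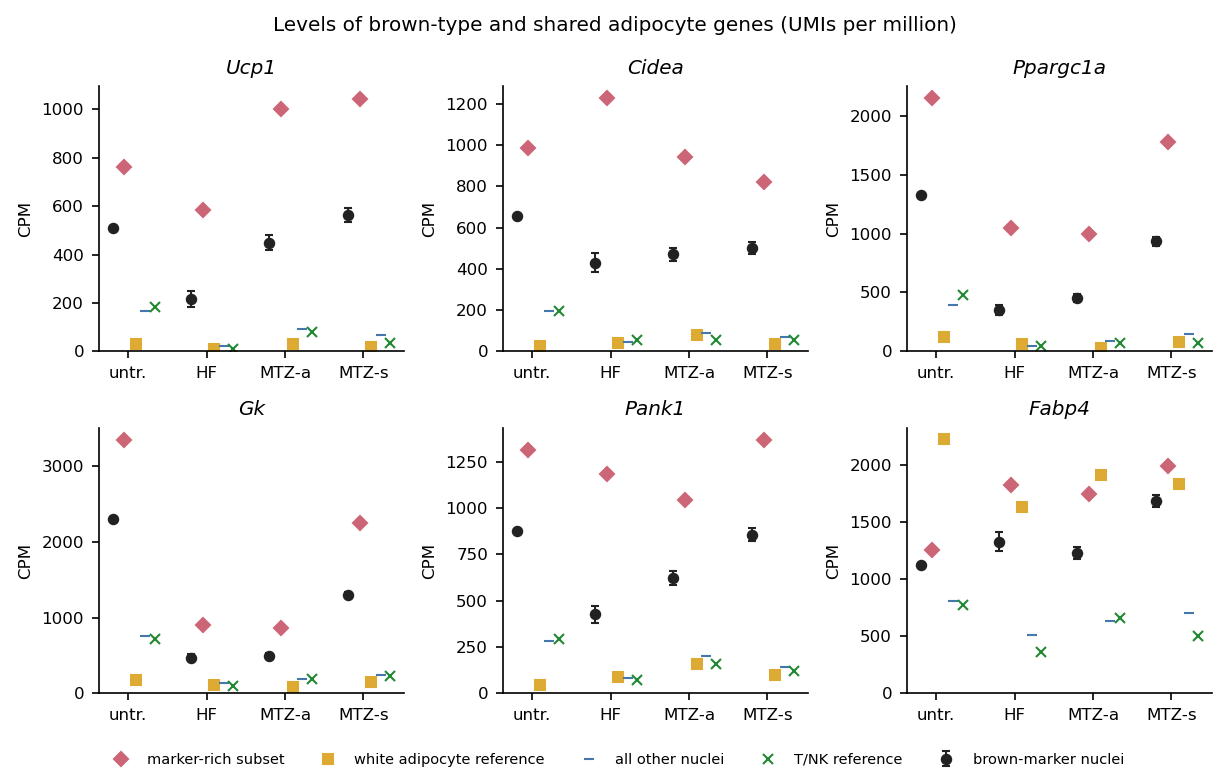
CPM of Ucp1, Cidea, Ppargc1a, Gk, Pank1 and Fabp4 in each library for brown-marker nuclei (with 95% counting interval), the marker-rich subset, white adipocyte reference nuclei, all other nuclei, and T and NK reference nuclei. Ucp1 in members (215 to 563 CPM) lies above the T and NK level in every library (10.5 to 183 CPM), which follows from choosing members by markers that include it.

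Ucp1 also varied from nucleus to nucleus. No Ucp1 UMI was found in 34.7% of untreated members, 64.0% of high-fat members, 44.9% of MTZ-after members and 42.6% of MTZ-simultaneous members. At least 3 were found in 22.9%, 2.12%, 5.39% and 13.5%, and the highest nucleus had 34, 6, 17 and 22 UMIs. With each member thinned to 500 UMIs, 21.0%, 12.96%, 24.3% and 25.6% had a Ucp1 UMI, against 7.83%, 1.10%, 5.76% and 2.56% of thinned T and NK nuclei. After thinning, untreated no longer had the highest share. The higher shares in members than in T and NK nuclei follow from choosing members by markers that include Ucp1.

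The knock-in gene did not mark these nuclei. Car1, which encodes CA1, measured 93.2, 85.2, 50.4 and 161 CPM in members, against 142, 86.4, 63.7 and 150 CPM in other nuclei and 112, 85.8, 61.6 and 124 CPM in T and NK nuclei. The member level was close to that of the other nuclei in high-fat and MTZ-simultaneous and below it in untreated and MTZ-after. Whether the knock-in allele is counted under Car1 is not given in the sources used here. Apoe measured 7.66, 13.98, 9.98 and 10.5 CPM, and 3' counts of it do not check the knockout.

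The comparison of high-fat with untreated asks how the diet relates to the state of these nuclei. A gene was counted as past the fold when its CPM ratio was at least 2 or at most 0.5 with at least 50 counts in the library where it was higher. Of 13059 genes with that many counts in either library, 1163 (8.91%) were past it, 309 (2.37%) with a higher level in high-fat and 854 (6.54%) with a lower one. The 50 counts stood for 63.5 CPM in high-fat members and 2.44 CPM in untreated members, so a gene lower in high-fat was counted down to a lower level than a gene higher there. With a minimum of 100 CPM in the higher library in place of counts, chosen after seeing the data, 190 were higher and 135 lower. With TMM scaling the median of all genes moved by -0.37 on the log2 scale, and 133 were higher and 1756 lower. The count of lower genes therefore rests on the minimum and the scaling.

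Some genes of heat production had a lower level in high-fat members. Of 25 thermogenic and mitochondrial genes, 24 had enough counts, 8 were past the fold with a lower level and 0 with a higher one, at a median log2 ratio of -0.78 against 0.13 over all genes. Of all genes, 6.54% were lower and 2.37% higher. The median of the same list was -1.19 in T and NK nuclei, -0.95 in all other nuclei and -0.36 in the marker-rich subset, where the median of all genes was -0.31. Gk, glycerol kinase (chrX:85701937-85776819), which lets brown fat reuse glycerol, measured 2309 CPM in untreated and 473 in high-fat, a ratio of 0.205 (0.184 to 0.227). Its ratio was 0.145 (0.107 to 0.192) in T and NK nuclei and 0.270 (0.197 to 0.362) in the marker-rich subset. Gk was thus lower in all 3 sets of nuclei, and the part that RNA from outside the nuclei has in the member ratios was not tested. Acot11, a thioesterase induced by cold, had a ratio of 0.397 (0.318 to 0.490) in members and 0.825 (0.461 to 1.36) in the marker-rich subset. Cox8b, a respiratory chain subunit of brown fat and muscle, measured 47.2 and 13.98 CPM. Pank1 had a ratio of 0.486 (0.435 to 0.541) in members and 0.904 (0.688 to 1.17) in the marker-rich subset. In the marker-rich subset the intervals of Pank1 and Acot11 took in a ratio of 1, with 59 and 15 counts in high-fat. The subset was cut on the rule markers, so it cannot show whether the lower levels in members were absent there.

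Of 20 listed regulators of brown identity, 19 had enough counts. Past the fold were 3 with a lower level and 0 with a higher one, at a median of -0.19. Among all genes, 6.54% were lower and 2.37% higher. Ebf2, which opens brown fat enhancers, measured 1826 and 810 CPM, a ratio of 0.444 (0.409 to 0.480). The Ebf2 ratio was 0.251 (0.203 to 0.307) in T and NK nuclei and 0.301 in other nuclei. In the marker-rich subset it was 0.667 (0.527 to 0.833), inside the fold. Prdm16, the coregulator of brown fate, measured 570 and 357 CPM, and Pparg, the master regulator of adipocytes, 3027 and 1585 CPM. Both of these stayed inside the fold. Zic1 had 1 and 0 counts, and Lhx8 had 73 and 2, so these markers of classical brown fat carried almost no information.

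In the adrenergic and thyroid list 22 of 25 had enough counts, with 5 lower and 1 higher past the fold at a median of -0.59 (-0.76 in T and NK nuclei). Over all genes, 6.54% were lower and 2.37% higher. Adrb3, the beta-3 receptor of adipocytes, measured 422 and 243 CPM. Adcy3, an adenylyl cyclase of brown fat, measured 168 and 59.7 CPM, a ratio of 0.356 (0.261 to 0.475), while its ratio in T and NK nuclei was 0.699 (0.457 to 1.04) in other nuclei 0.651 and in the marker-rich subset 0.600 (0.241 to 1.24). Adcy5 ran the other way at 31.0 and 80.1 CPM, near its level in other nuclei (64.3 and 66.0 CPM). Nr4a1, an immediate early gene downstream of cyclic AMP, measured 116 and 29.2 CPM, a ratio of 0.253 (0.160 to 0.381), and its ratio in T and NK nuclei was 0.330 (0.197 to 0.524). Prkar2b, the regulatory subunit of protein kinase A of adipocytes, had a ratio of 0.484 (0.452 to 0.518). That ratio was 0.260 (0.212 to 0.316) in T and NK nuclei and 0.755 (0.625 to 0.904) in the marker-rich subset. Slc4a4, a sodium bicarbonate cotransporter, measured 3976 and 948 CPM, a ratio of 0.238 (0.222 to 0.256), against 0.196 (0.164 to 0.232) in T and NK nuclei and 0.423 (0.351 to 0.506) in the marker-rich subset.

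In the list of fatty acid synthesis all 24 genes had enough counts, and 10 were lower and 0 higher, where 6.54% and 2.37% of all genes were. The median was -0.68 (-1.18 in T and NK nuclei, -1.04 in other nuclei and -0.37 in the marker-rich subset). Elovl6, which lengthens palmitate, measured 959 and 207 CPM, a ratio of 0.216 (0.184 to 0.252), and 0.277 (0.161 to 0.443) in the marker-rich subset. Acaca, the first enzyme of the pathway, measured 4745 and 1894 CPM, a ratio of 0.399 (0.379 to 0.420). Acss2, which makes acetyl coenzyme A from acetate, measured 521 and 151 CPM, a ratio of 0.290 (0.240 to 0.348). Fasn, the fatty acid synthase, measured 361 and 144 CPM, and Me1, which supplies NADPH, 355 and 102 CPM. The 5 enzymes were lower in T and NK nuclei as well, with ratios of 0.175, 0.335, 0.263, 0.229 and 0.384. Elovl3, an elongase of activated brown fat, had 308 counts in untreated and 0 in high-fat, which with a floor of 3 counts is a ratio of at most 0.254. Scd1, the desaturase, measured 508 and 301 CPM and stayed inside the fold.

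In the list of fatty acid uptake 6 of 15 were lower and 1 higher, where 6.54% of all genes were lower and 2.37% higher. The uptake median was -0.60 in members, -1.11 in T and NK nuclei, -0.74 in other nuclei and -0.23 in the marker-rich subset. Cd36, the fatty acid receptor, measured 2066 and 955 CPM, and Acsl1, which activates fatty acids, 2585 and 1125 CPM. Lpl, lipoprotein lipase, measured 815 and 817 CPM, and Fabp4, the fatty acid carrier, 1124 and 1327 CPM. Entry genes therefore split, with Cd36 and Acsl1 lower and Lpl and Fabp4 inside the fold. In the oxidation list 4 of 19 were lower and 0 higher, at a median of -0.45, which was -0.91 in T and NK nuclei and 0.24 in the marker-rich subset. Etfdh, which passes electrons to the respiratory chain, measured 205 and 86.4 CPM. In the glucose list 6 of 21 were lower and 0 higher, at a median of -0.66 (-0.90 in T and NK nuclei and -0.64 in the marker-rich subset). Hk2, the insulin-regulated hexokinase, measured 360 and 140 CPM, and Gbe1, the glycogen branching enzyme, 1098 and 491 CPM. Of 16 lipid droplet genes with enough counts, 0 were past the fold. Among substrate cycles 3 of 11 were lower, with Gpd2, the mitochondrial glycerol phosphate dehydrogenase, at 794 and 249 CPM and the calcium release channel Ryr2 at 221 and 73.7 CPM.

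Genes higher in high-fat members included signalling and immune genes. Pik3r1, the regulatory subunit of PI 3-kinase, measured 324 and 864 CPM, a ratio of 2.67 (2.46 to 2.89). Its ratio was 1.14 (0.966 to 1.34) in T and NK nuclei and 3.51 (2.56 to 4.70) in the marker-rich subset. Car3 measured 432 and 1059 CPM, a ratio of 2.45 (2.28 to 2.63), while it was 0.567 (0.476 to 0.671) in T and NK nuclei and 6.23 (5.00 to 7.69) in the marker-rich subset. For neither gene was the T and NK ratio past the fold on the higher side, and for Car3 the marker-rich interval lay above that of the members. Gbp7, an interferon-induced GTPase, measured 17.3 and 76.3 CPM, a ratio of 4.40 (3.29 to 5.80) against 1.15 (0.678 to 1.89) in T and NK nuclei. Iigp1, an interferon-induced GTPase, had a ratio of 5.36 (4.43 to 6.46), but 3.71 (2.66 to 5.18) in T and NK nuclei. Over the interferon list, 2 of 15 were past the fold with a higher level and 0 with a lower one, where 2.37% and 6.54% of all genes were. The interferon median was 1.21 (0.20 in T and NK nuclei, 0.40 in other nuclei and 1.34 in the marker-rich subset). Macrophage markers were higher as well, at a summed 437 CPM in untreated members and 1177 in high-fat members, and fibroblast markers at 512 and 1251 CPM. Their part in these differences was not tested.

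Igf1, a growth factor of macrophages and adipocytes, measured 61.9 and 277 CPM, below the 149 and 302 CPM of other nuclei. Abca1 and Abcg1, the cholesterol exporters, had ratios of 2.29 (2.14 to 2.45) and 3.17 (2.66 to 3.76), and 2.07 and 1.79 in T and NK nuclei. Other genes that the naming rule gave on the higher side were Sox4 (ratio 5.11), Bank1 (4.56, a B cell gene), Id2 (3.61), Steap4 (3.53), Wfs1 (3.25) and H2-Q7 (3.00). Id2, an inhibitor of helix-loop-helix factors, and Steap4, a metalloreductase, had T and NK ratios of 0.9296 and 1.22. On the lower side the rule named Hsd17b12 (0.208), Lgr6 (0.164), Gmpr (0.214) and Ppargc1a (0.266) beside Gk, Elovl6 and Slc4a4. Members were chosen by Gmpr and Ppargc1a among other markers, so these 2 ratios are a description. The naming rule also gave 3 genes with 1 to 3 counts in high-fat, Gm14764 (ratio 0.0764, 0.0157 to 0.224), Hephl1 (0.0534, 0.00135 to 0.299) and Adcy10 (0.0472, 0.00119 to 0.264). Gm14764 lies within Gk, whose reads cannot be told apart from it where counting ignores strand.

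**Figure D4:**
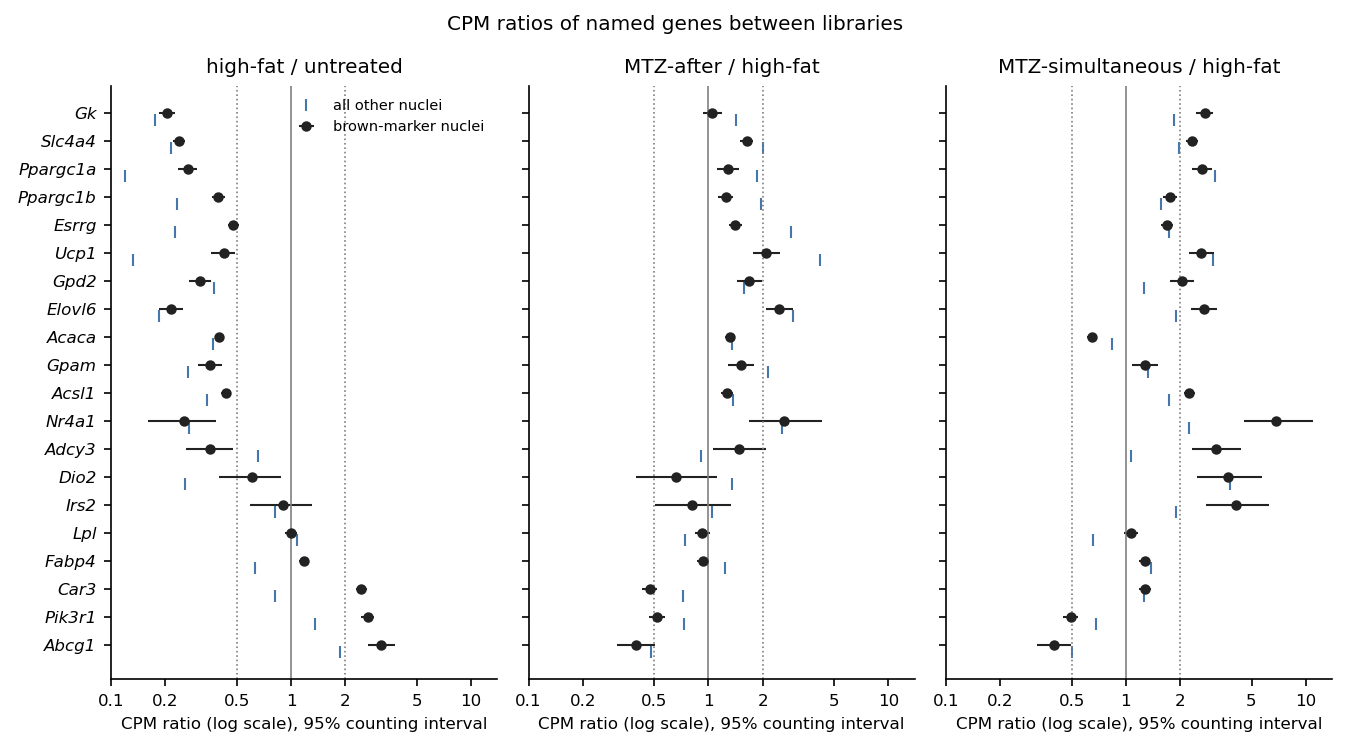
CPM ratios of 20 genes in the 3 comparisons (log axis) with 95% counting intervals; ticks mark the ratio in all other nuclei, and dotted lines mark 0.5 and 2. Gk lies at 0.205 in high-fat over untreated and at 2.75 in MTZ-simultaneous over high-fat, and Pik3r1 at 2.67 and 0.494.

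Both drug comparisons use the high-fat library as their base, and that library held 378 members, so its values enter both. In MTZ-after, 444 of 6504 genes (6.83%) were past the fold, 353 (5.43%) higher and 91 (1.4%) lower than in high-fat members. The thermogenic list had 0 of 18 genes past the fold in either direction, at a median of 0.12 (0.53 in T and NK nuclei), and the oxidation list 0 of 18 at 0.28. Gk measured 473 CPM in high-fat and 496 in MTZ-after, a ratio of 1.05 (0.929 to 1.19). Ppargc1a measured 353 and 452 CPM, while Ucp1 had a ratio of 2.09 (1.77 to 2.48) in members and 4.15 in other nuclei. Of the rule markers, Ucp1 and Gmpr were past the fold, and the genes of the thermogenic list were not. Members were chosen by these markers, so the marker ratios are given as a description.

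In fatty acid synthesis 3 of 22 genes were higher and 0 lower in MTZ-after, at a median of 0.28 (0.50 in T and NK nuclei). Of all genes, 5.43% were higher and 1.4% lower. Elovl6 measured 207 and 514 CPM, a ratio of 2.48 (2.10 to 2.95), against 2.39 (1.45 to 3.99) in T and NK nuclei. Scd1 measured 301 and 701 CPM, a ratio of 2.33 (2.02 to 2.69), against 2.09 (1.53 to 2.85). Me1 had a ratio of 2.38 (1.87 to 3.06), against 1.23 (0.681 to 2.17). Fasn and Acss2, at ratios of 1.94 (1.58 to 2.40) and 1.84 (1.504 to 2.27), were just inside the fold. Nr4a1 and the kinase gene Sik1, both targets of cyclic AMP signalling, had ratios of 2.62 (1.67 to 4.27) and 2.18 (1.41 to 3.50), and 2.58 and 1.53 in T and NK nuclei. Ryr2 had a ratio of 2.86 (2.16 to 3.83), and Acsl5, which activates fatty acids, 2.09 (1.51 to 2.93).

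On the lower side in MTZ-after, Car3 had a ratio of 0.473 (0.430 to 0.520) in members, 1.44 (1.13 to 1.83) in T and NK nuclei and 0.301 (0.227 to 0.398) in the marker-rich subset. Igf1 had a ratio of 0.424 (0.349 to 0.515) and Abcg1 0.396 (0.312 to 0.502), although Abcg1 stood at 1.54 (0.355 to 13.996) in the marker-rich subset. Pik3r1 measured 864 and 449 CPM, a ratio of 0.520 (0.469 to 0.576) that stayed inside the fold. The naming rule also gave Wfs1 (0.340), Sox4 (0.342), Steap4 (0.366), C4b (0.382), Npc2 (0.416), Ppa1 (0.421), Tom1 (0.430), Mapkapk3 (0.436) and Slc1a3 (0.461). Car3, Wfs1, Sox4, Steap4, C4b, Igf1 and Abcg1 were each higher in high-fat than in untreated members, and both comparisons use the same high-fat counts. Macrophage markers summed to 1177 CPM in high-fat members and 743 in MTZ-after members, and fibroblast markers to 1251 and 802 CPM. Their part in the lower levels was not tested.

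Among the genes that the naming rule gave as higher in MTZ-after than in high-fat, Cps1, the urea cycle enzyme, had 0 counts in high-fat members and 81 in MTZ-after, at least 11.8-fold higher with 3 counts as the floor in high-fat. Cyp3a25 (0 and 97 counts) and Srd5a2 (0 and 96 counts) were at least 14.1-fold and 13.956-fold higher, and Slco1b2 (1 and 72 counts) had a ratio of 31.4 (5.46 to 1257). In other nuclei of MTZ-after these genes measured 44.5, 44.9, 49.9 and 36.8 CPM, against 44.9, 53.8, 53.2 and 39.9 CPM in members. Rims2, a synaptic gene, had 6 and 143 counts, and Cyp7b1, an oxysterol hydroxylase, 24 and 256 counts. The remaining named genes were Tulp2, Gm31356, Pak3 and Gm20721, with ratios of 3.95 to 8.98. Hepatocyte markers summed to 49.6 CPM in high-fat members and 193 in MTZ-after members, and 210 CPM in other MTZ-after nuclei. Adrenal cortex markers summed to 54.7 and 324 CPM, and 371 CPM in other MTZ-after nuclei. The levels of these genes in members were thus like those of the library around them. The high-fat sums rest on fewer genes, with counts for 2 of 7 hepatocyte and 3 of 9 adrenal markers. In MTZ-after members 7 and 8 had counts.

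In MTZ-simultaneous, 492 of 7823 genes (6.29%) were past the fold, 368 (4.7%) higher and 124 (1.59%) lower than in high-fat members. In the thermogenic list 3 of 20 were higher and 0 lower, at a median of 0.51 against 0.01 over all genes, 0.49 in T and NK nuclei, 0.42 in other nuclei and 0.11 in the marker-rich subset. Gk measured 473 CPM in high-fat and 1301 in MTZ-simultaneous, a ratio of 2.75 (2.47 to 3.07). The Gk ratio was 2.16 (1.52 to 3.08) in T and NK nuclei and 2.50 (1.86 to 3.43) in the marker-rich subset. Pank1 had a ratio of 2.01 (1.79 to 2.26), but 1.15 (0.886 to 1.52) in the marker-rich subset. Ppargc1a, a rule marker given as a description, measured 353 and 933 CPM, a ratio of 2.64 (2.33 to 3.00). The Ppargc1a ratio was 3.14 in other nuclei and 1.70 (1.29 to 2.28) in the marker-rich subset. Slc4a4 measured 948 and 2210 CPM, a ratio of 2.33 (2.16 to 2.52), and 1.51 (1.26 to 1.83) in the marker-rich subset. Gk was the one of these whose ratio passed the fold in members, T and NK nuclei and the marker-rich subset.

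Adrenergic input genes past the fold were 4 of 22, all higher, at a median of 0.35. Of all genes, 4.7% were higher and 1.59% lower. Nr4a1 measured 29.2 and 201 CPM, a ratio of 6.87 (4.52 to 10.9), while it was 1.92 (1.08 to 3.49) in T and NK nuclei and 2.24 in other nuclei. Adcy3 measured 59.7 and 189 CPM, a ratio of 3.17 (2.35 to 4.38), while it was 1.27 (0.770 to 2.11) in T and NK nuclei and 1.06 in other nuclei. Sik1 had a ratio of 2.98 (1.97 to 4.69), and Nr4a3, a relative of Nr4a1, had 2 and 72 counts, a ratio of 11.4 (3.04 to 95.9). The high-fat base of these ratios was 23 member counts for Nr4a1 and 47 for Adcy3, and 20 and 31 counts in T and NK nuclei. How often member and T and NK ratios differ this far over all genes was not counted. Nothing particular to the members is therefore read from Nr4a1 and Adcy3. In the marker-rich subset the ratios were 7.44 (2.04 to 61.8, 2 counts in high-fat) and 2.003 (0.956 to 5.04). Both of those intervals overlapped the T and NK ones. In oxidation 2 of 19 genes were higher and 0 lower, among them Etfdh at 86.4 and 189 CPM. The oxidation median was 0.64 in members, 0.19 in T and NK nuclei, 0.52 in other nuclei and -0.060 in the marker-rich subset. In uptake 3 of 12 were higher, among them Acsl1 at 1125 and 2530 CPM, a ratio of 2.25 (2.10 to 2.42), and Slc27a2, a fatty acid transporter, at 49.6 and 165 CPM. The Slc27a2 ratio of 3.32 (2.39 to 4.74) was 0.946 in the marker-rich subset.

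In fatty acid synthesis 3 of 23 genes were higher in MTZ-simultaneous and 0 lower, where 4.7% and 1.59% of all genes were. The median was 0.20 (0.05 in T and NK nuclei and -0.27 in the marker-rich subset). Elovl6 measured 207 and 560 CPM, Scd1 301 and 635 CPM and Dgat1, which completes triglyceride synthesis, 141 and 310 CPM. Acaca measured 1894 and 1231 CPM, a ratio of 0.650 (0.611 to 0.692), Acss2 151 and 119 CPM and Fasn 144 and 139 CPM. Acaca, Acss2 and Fasn were thus not higher in MTZ-simultaneous than in high-fat. Pnpla3, a droplet lipase regulated by feeding, measured 319 and 99.8 CPM, a ratio of 0.313 (0.261 to 0.374), and 0.420 (0.214 to 0.784) in T and NK nuclei. In insulin signalling 1 gene was higher and 2 lower of 12. Irs2, the insulin receptor substrate, measured 35.6 and 145 CPM, a ratio of 4.08 (2.78 to 6.23), against 2.33 (0.965 to 6.199) in T and NK nuclei. Pik3r1 measured 864 and 427 CPM, a ratio of 0.494 (0.448 to 0.545), against 0.844 (0.684 to 1.04), and Grb14, which binds and inhibits the insulin receptor, 253 and 121 CPM. Irs2 stood at 39.5 and 28.8 CPM in the remaining libraries, so MTZ-simultaneous held the highest of its 4 values and high-fat the highest of those of Pik3r1.

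Other genes lower in MTZ-simultaneous than in high-fat members were Ptger3 (0.175, 0.117 to 0.258), the prostaglandin E receptor that opposes cyclic AMP, Iigp1 (0.286, 0.223 to 0.368), Igf1 (0.324, 0.267 to 0.392), Parm1 (0.371, 0.302 to 0.457), Gbp7 (0.385, but 1.39 among members with no barred gene), Id2 (0.389), Ppp1r3b (0.406), Fam13a (0.470, 0.435 to 0.509) and Wfs1 (0.285). Ptger3 had a ratio of 0.491 in other nuclei and Parm1 one of 0.779. The interferon list had 2 of 7 genes past the fold with a lower level, where 1.59% of all genes were. Its median was -0.50, which was 0.08 with members thinned to 500 UMIs and 0.10 in T and NK nuclei. Macrophage markers summed to 569 CPM and fibroblast markers to 860 CPM in these members, below the 1177 and 1251 CPM of high-fat members, and their part in the lower levels was not tested. Among the genes that the naming rule gave on the higher side, Cntnap2 had 0 and 237 counts and Syt1 0 and 190, at least 25.003-fold and 20.045-fold higher, and Cntn5 had 3 and 213 counts, a ratio of 22.5 (7.59 to 110) that was 0.772 among members with a Ucp1 UMI. Muc16, a mesothelial marker outside the rule because it was lower in members than in other nuclei, had 1 and 230 counts, a ratio of 72.8 (12.9 to 2888). In the other nuclei of MTZ-simultaneous Cntnap2, Syt1 and Cntn5 measured 58.6, 37.4 and 47.7 CPM, against 95.3, 76.4 and 85.7 CPM in members. In the marker-rich subset the 3 measured 11.1, 4.94 and 6.18 CPM. The rule also gave Kcnip4, Ctnna2, Snap25, Spock3, Elavl2 and Gm26871.

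**Figure D5:**
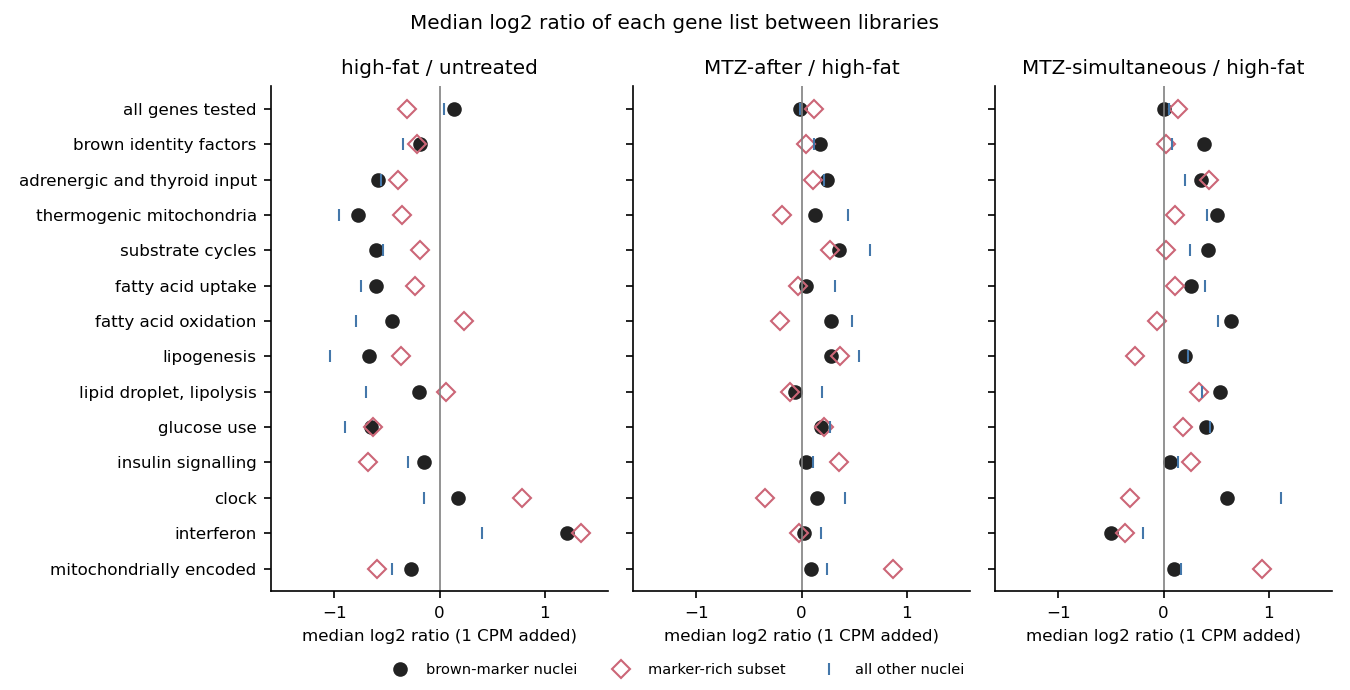
Median log2 CPM ratio of 13 gene lists and of all genes in the 3 comparisons, for brown-marker nuclei, the marker-rich subset and all other nuclei. In high-fat over untreated the thermogenic list lies at -0.78 in members and -0.95 in other nuclei, and the interferon list at 1.21 and 0.40.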

How the data were processed

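The data were 1 filtered matrix of UMI counts per library, with nuclei from fresh or frozen tissue and a 10x 3' kit, version 3.1, per the labels' protocols. The counts are those deposited by the authors: Cell Ranger 7.0.1 made them, per the file headers, with STAR and the mm10 build listed in the submitters' processing notes. Intron and strand settings of the counting are not given in the sources used here. The rule, the gene lists and the settings were chosen with earlier results of these data known. Counts were summed over members of a library and divided by all their UMIs (CPM), with exact Poisson intervals for levels, exact conditional binomial intervals for ratios and Clopper-Pearson intervals for shares, which cover counting error only. Ratios against 0 counts used a floor of 3 counts in that library. List medians used a pseudocount of 1 CPM and the genes that reached 50 counts in 1 of the compared libraries. With 1 library per group no test was run. The 38 symbols on more than 1 row were left out of lists. Named genes were the 18 rule genes, the 20 leading genes, in each comparison the 10 highest and 10 lowest past the fold by the interval bound nearest to 1 and at least as high in members as in other nuclei (mitochondrial, ribosomal and haemoglobin genes left out, and of the sex-linked genes Xist, Tsix and Y-linked genes, while other X-linked genes such as Gk were kept), and list members past the fold, with further list genes as examples chosen after their values were seen. The T and NK, B and white adipocyte nuclei used as references for levels exclude members. Doublets were not removed: the automatic Scrublet threshold (scanpy 1.11.5, exact neighbours) was not usable, since it marked 17.7% of high-fat nuclei and at most 0.0052% in each other library, and leaving out the highest 8% of scores is an alternative. Positions come from GENCODE (GRCm38) and promoters from RefSeq (GRCm38.p6). Python 3.11.15, numpy 2.4.6, scipy 1.17.1, pandas 2.3.3 and edgeR 4.0.16 (TMM factors only) were used, and the interval code was tested on simulated data. Some items that the naming rule gave are not reported here.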

Additional observations from a re-analysis of the deposited data

How the results depend on the processing

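Each share, count, list median and named ratio was recomputed under alternatives that changed 1 choice, and the cause of the changes was not tested. The alternatives of the 0.8% marker-rich subset and of a 100 CPM minimum were chosen after seeing the data. In the order untreated, high-fat, MTZ-after, MTZ-simultaneous, the shares were 32.2%, 2.83%, 8.59% and 9.66% with at least 3 markers, 18.0%, 0.292%, 1.33% and 3.14% with at least 5, and 12.6%, 0.0763%, 0.416% and 1.54% with at least 6. They were 8.46%, 0.345%, 1.29% and 1.62% with 0 barred genes, 16.1%, 0.358%, 1.96% and 3.31% with Ucp1 required, 6.04%, 0.0894%, 0.673% and 1.58% after thinning to 500 UMIs, and 7.40%, 0.0947%, 0.666% and 2.06% in the marker-rich subset. With at least 500 genes and at most 5% mitochondrial UMIs, untreated stood at 26.2% and MTZ-after at 4.19%, and without the highest 8% of Scrublet scores untreated stood at 23.8%. The order of the 4 libraries was the same in each of these. Genes past the fold in high-fat over untreated, higher, numbered 15 with at least 6 markers, 86 with 0 barred genes, 130 with Ucp1 required, 5 in the marker-rich subset, 42 with thinned members, 133 with TMM factors, 183 with equal weight for each nucleus, 3612 with no minimum count, 68 with at least 200 counts and 190 with at least 100 CPM. The lower ones numbered 1756 with TMM factors, 446 with at least 200 counts and 135 with at least 100 CPM. For MTZ-after over high-fat, the higher and lower counts were 78 and 9 with at least 6 markers, 135 and 25 with 0 barred genes, 66 and 8 in the marker-rich subset, 127 and 23 with thinned members, 1892 and 1666 with no minimum, 72 and 21 with at least 200 counts and 81 and 55 with at least 100 CPM, and 40 were lower with Ucp1 required. For MTZ-simultaneous over high-fat they were 175 and 44 with 0 barred genes, 143 and 37 with thinned members, 1512 and 1622 with no minimum, 96 and 34 with at least 200 counts and 69 and 77 with at least 100 CPM. There, 13 were lower with at least 6 markers, 60 with Ucp1 required and 11 in the marker-rich subset. Directions changed in 23 values, counting only list medians whose main range leaves out 0. The main range of a list runs from the median of its genes' lower interval bounds to the median of their upper ones. In the marker-rich subset the oxidation median was 0.24 in high-fat over untreated and -0.060 in MTZ-simultaneous over high-fat, and the clock median there was -0.32. The interferon median there was 0.080 with thinned members. In high-fat over untreated, the marker-rich ratios were 2.13 for Alpl, 1.89 for Cox7a1 and 2.32 for Fosb, Alpl stood at 1.17 with 0 barred genes, Car2 at 1.66 and Cox7a1 at 1.18 with at least 6 markers, Sqle at 1.12 with thinned members and Trib3 at 1.23 with Ucp1 required. In MTZ-after over high-fat the marker-rich ratios were 1.54 for Abcg1, 0.756 for Hlf and 0.645 for Slc27a2, and Hlf stood at 0.843 with at least 6 markers. In MTZ-simultaneous over high-fat they were 1.17 for Abcg1, 0.553 for Hlf, 0.830 for Sesn2 and 0.946 for Slc27a2, while Gbp7 stood at 1.39 and Hlf at 0.857 with 0 barred genes and Cntn5 at 0.772 with Ucp1 required. Over all alternatives, 855 of 1290 gene ratios stayed inside the interval of the main value, and 1271 of the gene ratios kept their direction. Of 594 list medians, 555 stayed inside the main range described above, which is no measure of the error of a list median. No paired analysis was possible because each group had 1 library, and no replicate could be left out. Depth limits the high-fat members most, since they held 786789 UMIs in all and their marker-rich subset 36 nuclei.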

Other observations

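Of 19 listed genes of the circadian clock, 15 had enough counts in MTZ-simultaneous over high-fat, with 3 past the fold on the higher side, where 4.7% of all genes were, at a median log2 ratio of 0.60. The median was 1.13 in T and NK nuclei, 1.12 in all other nuclei and -0.32 in the marker-rich subset. Per1, a core clock gene, measured 23.2, 24.1, 29.9 and 88.1 CPM in members (untreated first, then high-fat, then the after and simultaneous drug libraries), a ratio of 3.65 (2.28 to 6.18) over high-fat against 4.59 (1.98 to 12.4) in T and NK nuclei. Tef, a clock output factor, measured 93.7, 116, 153 and 257 CPM, and Arntl, the partner of Clock, 102, 39.4, 43.2 and 17.7 CPM. Per1 and Tef were highest and Arntl lowest in MTZ-simultaneous. The sources used here do not give the hour of tissue collection.

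Hsph1, a heat shock protein, measured 198, 61.0, 21.6 and 26.1 CPM, with a ratio of 0.308 (0.226 to 0.409) in high-fat over untreated and 0.345 in T and NK nuclei. Nrg4, a growth factor secreted by brown fat, measured 1042, 686, 896 and 1241 CPM, and Vegfa, which drives vessel growth, 823, 699, 862 and 698 CPM. Both secreted factors stayed inside the fold in all 3 comparisons. Mesothelial markers summed to 77.9, 7.63, 47.1 and 236 CPM in members and to 186, 8.37, 77.7 and 399 CPM in other nuclei, and Msln, Upk3b, Lrrn4 and Krt19 had 0 counts in high-fat members.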
